A study of Homo sapiens with 24 samples.

Results

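Neurons exposed to rotenone were compared directly with neurons exposed to paraquat, so that the paraquat cultures, and not the DMSO vehicle cultures, were the reference. The libraries were taken by their labels: 3 Rotenone and 3 Paraquat libraries, 6 of the 24 RNA sequencing libraries of the series. Rotenone was given at 1 µM and paraquat at 5 µM, each for 6 h, and both compounds were diluted from stocks in DMSO. The sample annotation gives 1% DMSO for the Rotenone and Paraquat cultures as well as for the vehicle cultures. The 3 vehicle libraries are given beside the others for orientation. The doses differ, so a difference between the groups belongs to these 2 exposures, and compound and dose cannot be told apart. All cultures came from 1 line, LUHMES, conditionally immortalised human mesencephalic precursor cells. All were differentiated in the same way, with tetracycline, cyclic AMP and the growth factor GDNF.

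Rotenone is a plant-derived pesticide that blocks complex I of the mitochondrial respiratory chain and also binds tubulin and hinders microtubule assembly. Paraquat is a bipyridinium herbicide that takes up electrons inside cells and passes them to oxygen. Microtubules are polymers of alpha and beta tubulin, and cells hold the amount of tubulin steady by degrading tubulin mRNA on the ribosome when free tubulin dimers are in excess. The factor TTC5 takes part in this by binding the first residues of tubulin as they leave the ribosome.

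The cells carried neuronal transcripts in every library. Levels are given as CPM, the reads of a gene per megaread of the scaled library total. The 18 pan-neuronal markers tested summed to between 10265 and 10469.5 CPM in Rotenone and between 9667 and 10946 CPM in Paraquat. The dopaminergic label was met in part. SLC6A3, the dopamine transporter, and TH, tyrosine hydroxylase, which makes the dopamine precursor, were expressed in every library. The vesicular monoamine transporter SLC18A2 did not exceed 0.61 CPM in any Rotenone, Paraquat or DMSO library, and LMX1A, FOXA1 and FOXA2 had 0 reads in all 9 of them.

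One library stood apart. Among 9891 genes with a mean of at least 10 CPM in Rotenone, 1488 genes of Rotenone replicate 1 lay more than 0.5 log2 away from the mean of the other 2 libraries, against 420 for replicate 2 and 442 for replicate 3. The same count ran from 18 to 90 in Paraquat and from 9 to 59 in DMSO. The 617 genes that lay above in Rotenone replicate 1 had a median GC content of 38.5%, and the 871 that lay below had 61.0%. A curve of level against GC content, fitted in each library, fell by 0.39 log2 between 40% and 60% GC in Rotenone replicate 1 and climbed by 0.20 and 0.22 in replicates 2 and 3. In Paraquat and DMSO the same step stayed between -0.06 and 0.07. Rotenone libraries held 24.7, 9.69 and 12.4 megareads counted to genes and Paraquat libraries 15.2, 45.1 and 18.5. The genes called higher or lower below were also called without Rotenone replicate 1, except where the text says that a call was lost or gives it for all libraries alone.

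**Figure D1:**
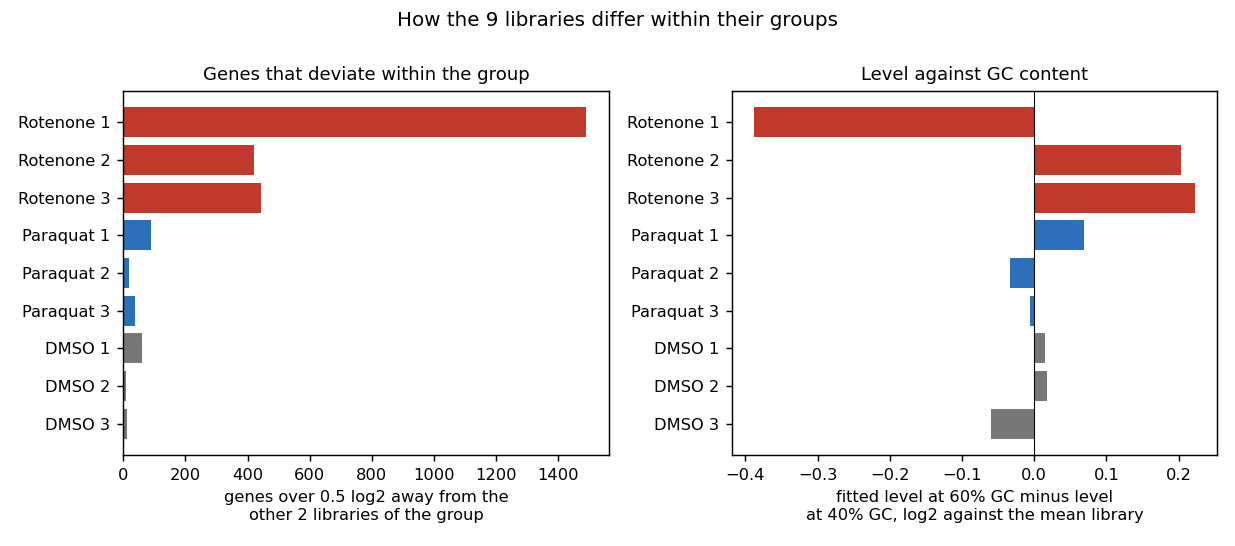
Left, bars count the genes of each Rotenone, Paraquat and DMSO library that lay over 0.5 log2 from the other 2 libraries of the group. Right, bars show the fitted level at 60% minus that at 40% GC content in log2; Rotenone replicate 1 stands at 1488 genes and at -0.39, away from all 8 others.

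The direct comparison called 828 of 18852 genes, 4.39%, by edgeR's quasi-likelihood test with a Benjamini-Hochberg adjusted p under 0.05. Of these, 424 (2.25%) were higher and 404 (2.14%) lower in Rotenone than in Paraquat. The change was at least 2-fold for 49 of the higher and 109 of the lower genes, and for 43 and 64 of them where the higher group reached 1 CPM. Without Rotenone replicate 1 the test called 1430 genes (7.59%), 713 higher (3.78%) and 717 lower (3.8%). The 2 fits shared 610 genes, 3.24% of those tested (333 higher, 1.77%, and 277 lower, 1.47%), and none of the shared genes changed direction. Among the calls made without replicate 1 the median GC content was 54.5% for higher and 43.1% for lower genes, and among the 610 shared calls it was 49.4% and 48.5%. The series design calls the triplicates biological samples, and each p-value sets a difference against the variation among such triplicates, pooled over all 8 groups of the series. With the 2 groups fitted alone, 66 genes were higher and 40 lower, and 1045 and 915 once Rotenone replicate 1 was also left out. Leaving out Paraquat replicate 1, 2 or 3 gave 236, 248 or 206 higher genes and 210, 232 or 193 lower genes.

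Against DMSO, Rotenone called 1041 genes (5.52%), 521 higher (2.76%) and 520 lower (2.76%), and Paraquat called 0 by edgeR and 0 by DESeq2. For Paraquat 182 of 18852 genes had an unadjusted edgeR p under 0.05, a smaller share than that threshold passes when nothing differs. The spread was pooled over all 8 groups. Library deviations within the group had SDs of 0.14 to 0.17 log2 in Paraquat, 0.11 to 0.16 in DMSO and 0.24 to 0.35 in Rotenone. The 0 calls therefore do not show that Paraquat and DMSO were alike. These comparisons with DMSO share libraries with the direct one, so their values for single genes are set side by side below without being counted as further evidence.

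**Figure D2:**
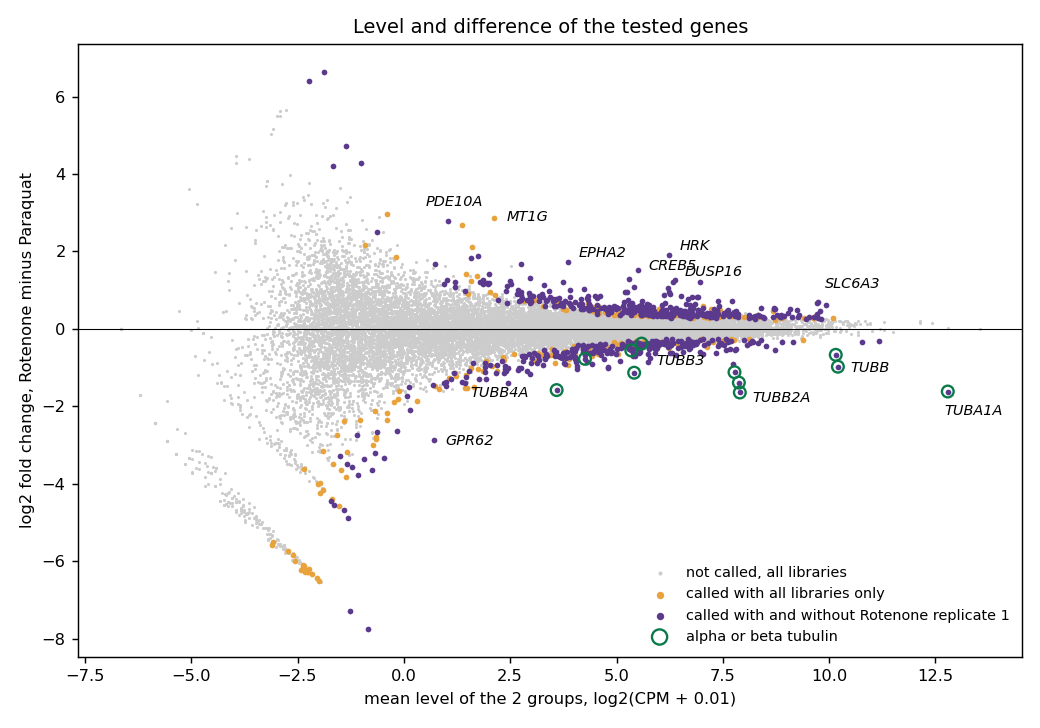
Each point is 1 of 18852 tested genes, with the mean CPM of both groups on a log2 axis against the log2 fold change, Rotenone minus Paraquat. Purple genes were called with and without Rotenone replicate 1, orange genes only with it, and the circled tubulins lie below 0, TUBA1A at -1.62 with the highest level among them.

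Tubulin transcripts were lower in Rotenone almost throughout. Of the 11 listed alpha and beta tubulins that were tested, 10 were lower in Rotenone and 0 were higher, against 2.14% lower among all genes, and 10 were also lower without Rotenone replicate 1. The median log2 fold change of the 11 was -1.12, and -0.93 without replicate 1, where the medians over all genes were -0.01 and -0.02. In every one of the 11 the Rotenone libraries lay below all Paraquat libraries, as they did for 9.98% of all genes. Summed over the 11, the libraries held between 5028 and 6009 CPM in Rotenone, between 14475 and 15144 in Paraquat and between 14830 and 16035 in DMSO. In bulk RNA, fewer cells with a transcript and less of it per cell cannot be told apart. TUBA8 had at most 9 reads in any of the 9 libraries and was not tested. TUBB1, the platelet isotype, was tested but was not on the list and was added after its values were seen. It had 0.243, 0.42 and 0.574 CPM in Rotenone and 1.59, 1.05 and 1.08 in Paraquat, and its log2 fold change of -1.64 ± 0.57 did not pass (edgeR adjusted p = 0.0996, and 0.243 without replicate 1).

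The coding starts of 5 tubulin genes are shown because the first residues are what TTC5 reads. They were taken from the GENCODE 29 transcripts on GRCh38, with the first 4 codons in capitals.
TUBA1A: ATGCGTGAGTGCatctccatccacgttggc
TUBB: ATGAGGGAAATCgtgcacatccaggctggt
TUBB2A: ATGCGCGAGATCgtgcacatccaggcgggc
TUBB3: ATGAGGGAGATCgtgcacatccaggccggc
TUBG1: ATGCCGAGGGAAatcatcaccctacagttg
The A of the start codon lies at position 49188419 of chromosome 12 for TUBA1A and at 3157463 of chromosome 6 for TUBB2A, both on the minus strand. It lies at 30720507 of chromosome 6 for TUBB, 89923402 of chromosome 16 for TUBB3 and 42609738 of chromosome 17 for TUBG1, all on the plus strand. All 5 alpha genes examined encode the same first 4 residues as TUBA1A, and all 8 beta genes, TUBB1 among them, the same as TUBB. The 4 gamma, delta and epsilon genes encode others. Of the genes with the shared residues, 10 were lower in Rotenone, and TUBB3 and TUBB1 did not pass. Of the 4 genes with others, only TUBG1 was lower. Whether TTC5 or mRNA decay took part in the lower levels was not tested.

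Among the alpha tubulins, TUBA1A, the main alpha isotype of young neurons, had 3117, 3747 and 3581 CPM in the 3 Rotenone libraries and 10662, 10434 and 10923 in the 3 Paraquat libraries. The Rotenone libraries lay far below the others, which in turn were close to the 10742 to 11626 CPM of DMSO. The level was 3.07-fold lower in Rotenone, a log2 fold change of -1.62 ± 0.08 (SE, n = 3 per group, edgeR adjusted p = 3.21e-15), with a 95% interval from -1.77 to -1.46. Against DMSO the log2 fold change was -1.69 for Rotenone and -0.07 for Paraquat. TUBA1B had 98.2, 171 and 147 CPM in Rotenone and 308, 297 and 292 in Paraquat, and replicate 1 was the lowest. Its log2 fold change was -1.12 ± 0.11, and -0.92 without replicate 1. TUBA1C stood at -1.13 ± 0.12 and TUBA4A at -0.77 ± 0.13. TUBA1A, TUBA1B and TUBA1C are close copies, and the handling of reads that fit several of them is not given in the sources used here.

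Among the beta tubulins, TUBB2A had 100.2, 119 and 129 CPM in Rotenone and 358, 354 and 372 in Paraquat, a log2 fold change of -1.64 ± 0.10 (edgeR adjusted p = 3.36e-13). TUBB, the broadly expressed class I isotype, had 713, 826 and 850 CPM against 1559, 1493 and 1644, a log2 fold change of -0.98 ± 0.07. The ranges of both genes were well apart. The log2 fold changes of the other called beta genes were -1.58 ± 0.23 for TUBB4A, -1.39 ± 0.12 for TUBB4B, -0.67 ± 0.09 for TUBB2B and -0.56 ± 0.11 for TUBB6. Of these, TUBB6 lost its call with the 2 groups alone (edgeR adjusted p = 0.088). TUBB3, the neuron-specific class III isotype, had 42.9, 42.8 and 39.7 CPM in Rotenone and 53.2, 46.1 and 64.3 in Paraquat. Its log2 fold change of -0.38 ± 0.18 did not pass the test (edgeR adjusted p = 0.241, and 0.225 without replicate 1), and its 95% interval ran from -0.74 to -0.02. All 3 Rotenone libraries lay below the Paraquat libraries, by a narrow margin. Differences between isotypes were not tested.

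**Figure D3:**
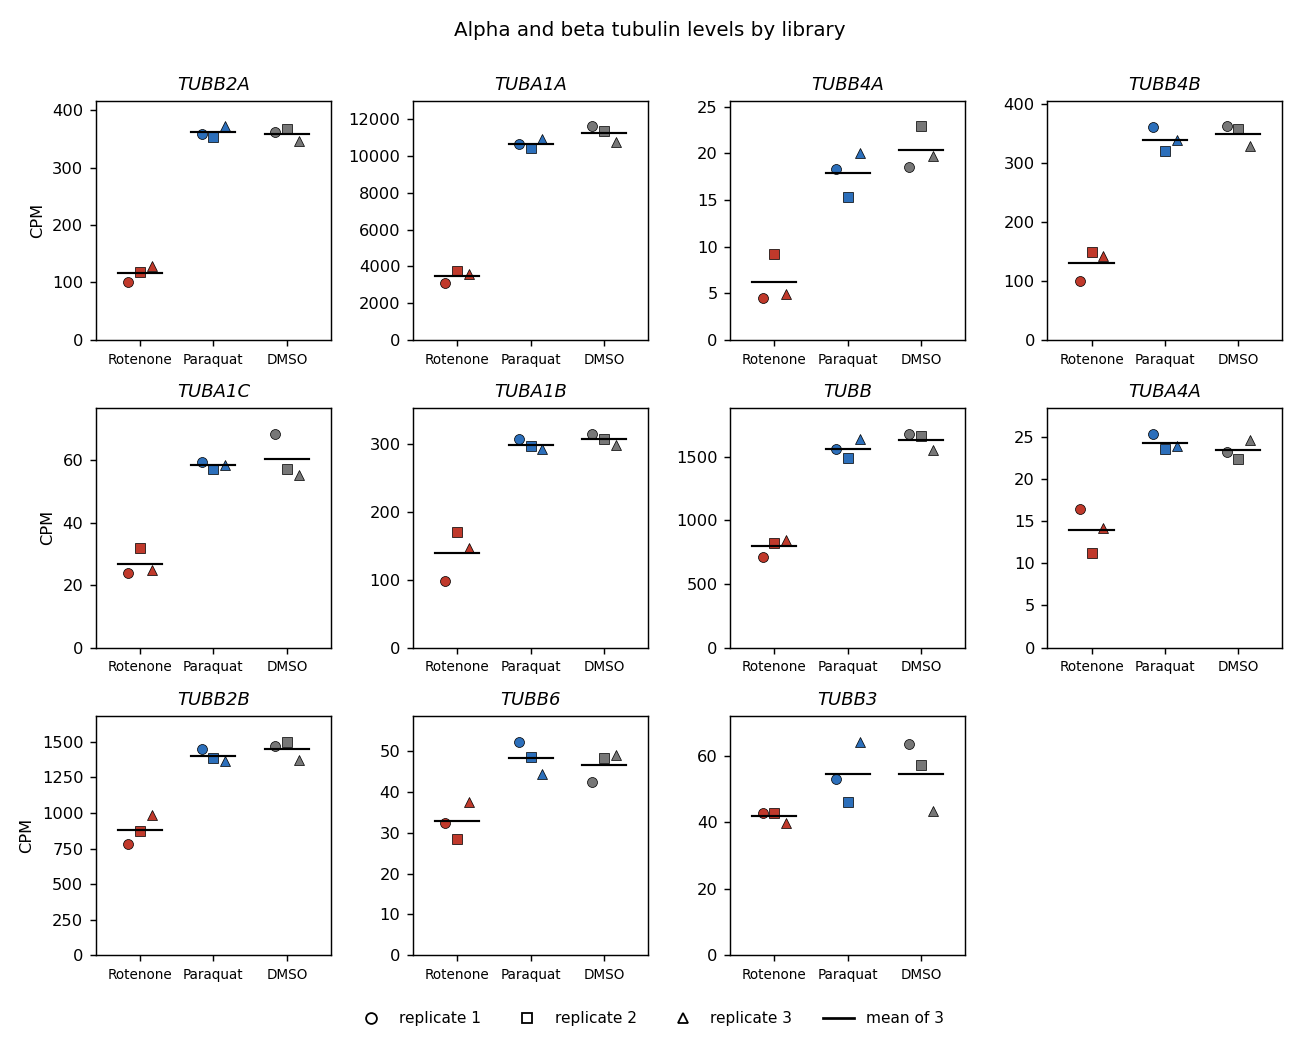
CPM of the 11 listed tubulins that were tested, 1 panel each and with its own axis from 0, in Rotenone, Paraquat and DMSO; symbols are single libraries and bars the means of 3. In TUBA1A the Rotenone libraries lie between 3117 and 3747 CPM and all others above 10000.

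Few other genes of the microtubule system were called. The gamma tubulin TUBG1, part of the nucleating ring complex, was chosen after its values were seen: it had 33.2, 35.7 and 45.5 CPM in Rotenone and 66.8, 65.0 and 74.6 in Paraquat. All Rotenone libraries lay below, and the log2 fold change was -0.85 ± 0.12 (edgeR adjusted p = 3.79e-05, and 0.000385 without replicate 1). TUBG2, TUBD1 and TUBE1 stood at -0.24, -0.12 and -0.15 and did not pass. Of 19 microtubule-associated proteins and stathmins, 1 was higher and 1 lower, against 2.25% and 2.14% of all genes. STMN4, a neuronal member of the stathmin family, whose proteins bind free tubulin, was higher by 0.53 ± 0.10 (edgeR adjusted p = 0.00115). TTC5 was lower, with 51.8, 61.9 and 50.3 CPM against 67.1, 74.7 and 74.1, a log2 fold change of -0.40 ± 0.09 (edgeR adjusted p = 0.00995). TTC5 passed without replicate 1 (0.0234) but not once GC content was corrected as well (0.0699) or with the 2 groups alone (0.169). Of 18 kinesin and dynein genes of axonal transport only the dynein light chain DYNLL1 was called, against 4.39% of all genes. DYNLL1 stood at -0.29 ± 0.07 (edgeR adjusted p = 0.0124).

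Genes of the axon injury pathway, in which the kinases DLK and JNK act on the transcription factor JUN, were higher in part. Of 19 members tested, 4 were higher and 0 lower, against 2.25% higher among all genes, with a median of 0.17. HRK, a pro-apoptotic BH3-only protein that JNK signalling induces in neurons, had 122, 121 and 114 CPM in Rotenone and 29.9, 30.6 and 35.3 in Paraquat. The Rotenone libraries lay above all Paraquat libraries, as they did for 8.73% of all genes, and DMSO lay between 24.8 and 29.5. HRK was 3.72-fold higher, a log2 fold change of 1.90 ± 0.12 (edgeR adjusted p = 4.70e-12), and of 1.88 ± 0.13 without replicate 1. Against DMSO it stood at 2.14 in Rotenone and 0.24 in Paraquat.

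JUN itself had 125, 146 and 182 CPM against 89.8, 79.7 and 87.5, with replicate 1 the lowest of the Rotenone libraries. Its log2 fold change was 0.81 ± 0.12 (edgeR adjusted p = 3.66e-05), and 0.94 ± 0.11 without that library. The other 2 called members were STMN4 and DDIT3, a stress-induced transcription factor also called CHOP. DDIT3 had 18.8, 18.7 and 17.6 CPM against 9.39, 14 and 11.4, a log2 fold change of 0.64 ± 0.18 (edgeR adjusted p = 0.0342), which became 0.0535 without replicate 1. ATF3, the classical injury factor, stood at 0.65 ± 0.22 and did not pass (edgeR adjusted p = 0.0823), but passed without replicate 1 (0.0402). The transcript of DLK, MAP3K12, did not pass at 0.09 ± 0.12. CREB5, which can pair with JUN on DNA, was outside the list and had 71.2, 61.3 and 68.7 CPM against 26.1, 22.8 and 21.0. Its log2 fold change was 1.53 ± 0.14 (edgeR adjusted p = 8.83e-09), and 1.48 without replicate 1.

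Of the 15 immediate early genes tested, JUN and NR4A1 were higher and 0 lower, against 2.25% and 2.14% of all genes. Without replicate 1, 3 were higher and 1 lower, against 3.78% and 3.8%. FOS stayed under 1 CPM in every Rotenone and Paraquat library. NR4A1 was near the threshold (0.76 ± 0.23, edgeR adjusted p = 0.0496). The phosphatases that switch off MAP kinases went both ways. Of 15 feedback genes, 2 were higher and 1 lower, against 2.25% and 2.14% of all genes. DUSP16, which acts on JNK and p38, had 109, 105 and 126 CPM against 44.8, 45.1 and 55.8, a log2 fold change of 1.22 ± 0.10 (edgeR adjusted p = 8.15e-10). DUSP1 was higher by 0.67 ± 0.09 (edgeR adjusted p = 2.19e-05). DUSP6, which acts on ERK, had 8.41, 11 and 12.4 CPM against 18.8, 17.3 and 16.9 and stood at -0.76 ± 0.16 (edgeR adjusted p = 0.00567). In none of these 3 genes did the groups overlap.

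In the BCL2 family HRK was the only higher and BID, also a BH3-only protein, the only lower of 15 members. Among all genes 2.25% were higher and 2.14% lower. BID stood at -0.31 ± 0.08 (edgeR adjusted p = 0.028). The anti-apoptotic MCL1 and BCL2L1, at -0.13 ± 0.07 and -0.06 ± 0.12, did not pass. Of 25 p53 targets, CCNG1 was higher and TIGAR and SESN2 lower, against 2.25% and 2.14% of all genes. The 2 lower calls were lost without replicate 1.

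**Figure D4:**
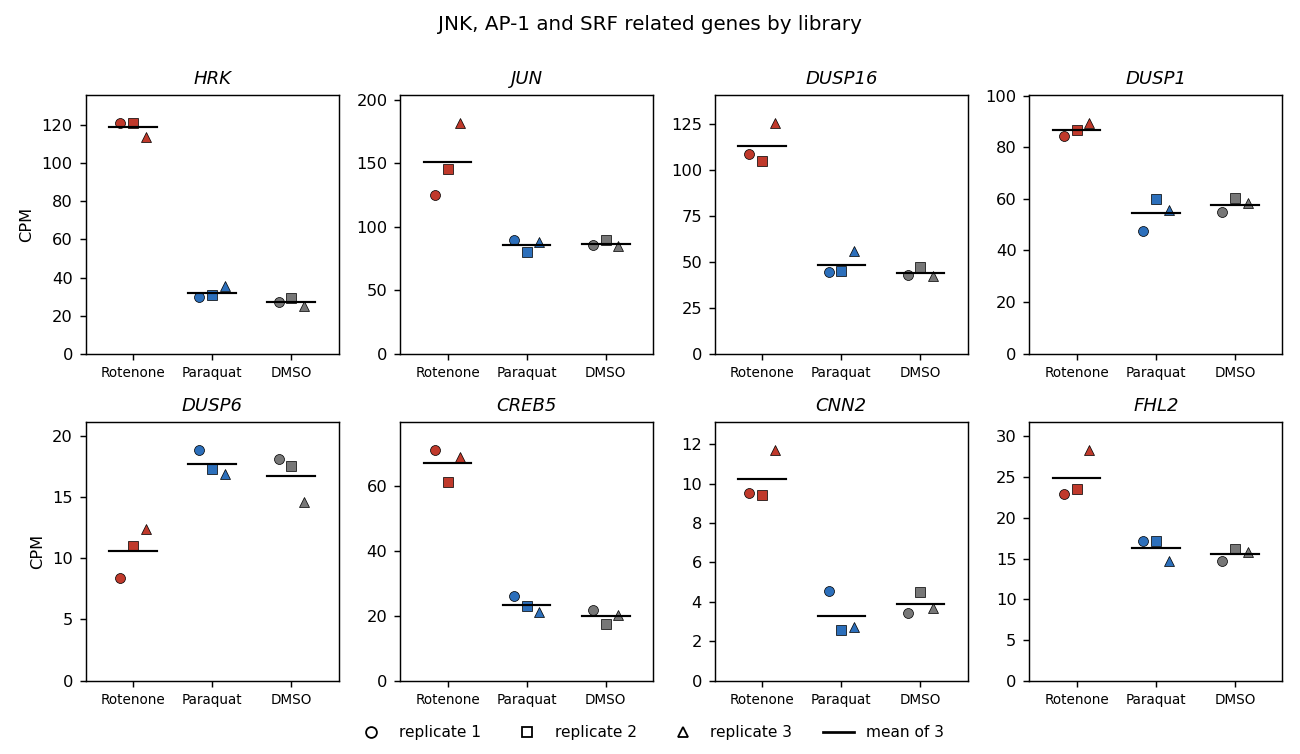
CPM of 8 genes, 1 panel each and with its own axis from 0, in Rotenone, Paraquat and DMSO; symbols are single libraries and bars the means of 3. The Rotenone libraries lie above all Paraquat libraries in 7 panels, HRK between 114 and 122 CPM, and below them in DUSP6.

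Genes of the actin cytoskeleton and targets of serum response factor (SRF), a transcription factor that actin dynamics control, were higher in part. Of 17 tested, 6 were higher and 0 lower, against 2.25% higher among all genes, and 8 were higher without replicate 1, against 3.78%. The median log2 fold change was 0.25. CNN2, a calponin that binds actin, had 9.51, 9.45 and 11.7 CPM in Rotenone and 4.56, 2.59 and 2.71 in Paraquat, with no overlap. Its log2 fold change was 1.68 ± 0.25 (edgeR adjusted p = 7.32e-05). FILIP1L was higher by 0.79 ± 0.13, the LIM protein FHL2 by 0.60 ± 0.13, non-muscle myosin MYH9 by 0.47 ± 0.13, tropomyosin TPM4 by 0.33 ± 0.07 and vinculin, VCL, by 0.32 ± 0.10. The actins ACTB and ACTG1, at 0.01 ± 0.09 and 0.15 ± 0.08, and SRF, at 0.26 ± 0.12, did not pass, though SRF did without replicate 1 (edgeR adjusted p = 0.0155). With the 2 groups alone CNN2 and FILIP1L remained called, and without Paraquat replicate 1, 2 or 3 the count of higher members was 4 each time. Muscle-type genes outside the list were chosen after their values were seen: ACTA1 was higher by 1.13 ± 0.25, PDLIM3 by 0.91 ± 0.10, LMOD1 by 0.85 ± 0.15 and LDB3 by 0.72 ± 0.14, each also without replicate 1.

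SRF binds a motif known as the CArG box. Windows of 50 bases around the box are shown for the higher members that hold one within 250 bases before the start site, with the box in capitals. They were read from RefSeq promoters on GRCh38.p14 and are written in the direction of the gene.
CNN2: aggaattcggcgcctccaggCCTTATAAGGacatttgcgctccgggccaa
FILIP1L: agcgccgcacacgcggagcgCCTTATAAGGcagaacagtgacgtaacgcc
FHL2: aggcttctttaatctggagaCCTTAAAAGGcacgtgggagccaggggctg
TPM4: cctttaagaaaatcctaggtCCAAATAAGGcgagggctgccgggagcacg
The windows lie at chr19:1026499-1026548 on the plus strand for CNN2 and at chr3:99876204-99876253 on the minus strand for FILIP1L. Those of FHL2 and TPM4 lie at chr2:105438585-105438634 on the minus and chr19:16067345-16067394 on the plus strand. The box, searched on both strands, was present in at least 1 listed promoter of 4 of the 6 higher members and of 4 of the 8 uncalled members with a promoter in the table, and in 407 of 35116 promoters in all, 1.16%. The list was made of SRF targets, so the box was no independent property of its members.

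Genes for amino acid supply and stress adaptation that ATF4 controls, the integrated stress response, gave more lower than higher calls. Of 40 tested, 9 were lower and 2 higher, against 2.14% and 2.25% of all genes, and the median was -0.19. Without replicate 1, 6 were lower and 3 higher, against 3.8% and 3.78% of all genes. With GC correction of all libraries 14 were lower and 4 higher, against 856 and 931 of all 18852 genes. The transcript of ATF4, a factor controlled mainly by translation, did not pass at -0.03 ± 0.09. ALDH1L2, a mitochondrial folate enzyme, had 11.9, 7.98 and 8.69 CPM against 17.5, 18.2 and 18.9, a log2 fold change of -0.90 ± 0.17 (edgeR adjusted p = 0.00126). PSAT1, of serine synthesis, had 90.5, 79.5 and 87.9 CPM against 124, 128 and 120.3, a log2 fold change of -0.53 ± 0.08 (edgeR adjusted p = 0.000152). Neither gene showed overlap between the groups.

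Further lower members were DDIT4, an inhibitor of mTOR complex 1 (-0.92 ± 0.18), the glycine transporter SLC6A9 (-0.96 ± 0.24) and PSPH, also of serine synthesis (-0.50 ± 0.11). CHAC1, SESN2 and the tRNA synthetases AARS1 and GARS1 were lower with all libraries and lost the call without replicate 1, with edgeR adjusted p-values of 0.11, 0.073, 0.0648 and 0.0722. PPP1R15A, which lets translation resume, was higher by 0.36 ± 0.10, and DDIT3 is given above. With the 2 groups alone, 2 members were lower (ALDH1L2 and PSAT1) and 0 higher, and without Paraquat replicate 1 or 3, 5 and 4 were lower and 0 higher.

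EIF2AK3, the kinase PERK that starts this response at the endoplasmic reticulum, was outside the lists and chosen after its values were seen. It had 107, 94.5 and 101 CPM in Rotenone and 45.4, 53.8 and 46.2 in Paraquat, a log2 fold change of 1.05 ± 0.10 (edgeR adjusted p = 2.98e-08, and 1.45e-07 without replicate 1). Of 19 chaperones and other genes induced by unfolded proteins in that compartment, 4 were higher, against 2.25% of all genes, and 0 lower. These were MANF, CANX, PDIA6 and HSP90B1, at 0.27 to 0.37, of which MANF and PDIA6 also passed without replicate 1. None of the 4 passed with the 2 groups alone (edgeR adjusted p from 0.164 to 0.238). HSPA5, the chaperone BiP that leads this response, did not pass at 0.18 ± 0.13.

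Complex I, the known target of rotenone, and the mitochondrial genome gave few calls at the transcript level. Nuclear genes of the other complexes were not on the lists. Of 37 nuclear complex I subunits 0 were called by edgeR, against 4.39% of all genes, and DESeq2 called 1. An unadjusted p under 0.05 was found for 5 of the 37, against 3507 of all 18852 genes. Of 15 mitochondrially encoded genes 2 were lower, both of complex I, against 2.14% lower among all genes. MT-ND1 had 7.12, 10.9 and 12.4 CPM against 13.1, 19 and 24.7, a log2 fold change of -0.94 ± 0.23, and MT-ND5 22.9, 27.4 and 25.8 CPM against 41.9, 34 and 43.6, of -0.65 ± 0.18. Their edgeR adjusted p-values of 0.0123 and 0.0305 became 0.0637 and 0.0727 without replicate 1, where the log2 fold changes were -0.70 and -0.58. With GC correction and without replicate 1, MT-ND1 passed (0.0469) and MT-ND5 did not (0.0573). The share of reads in the mitochondrial protein genes was 0.279% ± 0.0361 in Rotenone and 0.306% ± 0.0483 in Paraquat (SD, n = 3, two-sided exact permutation p = 0.6, where the smallest possible is 0.1). Libraries were selected for polyadenylated RNA and then depleted of ribosomal RNA, steps that also act on mitochondrial transcripts.

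Glycolytic enzymes, which carry ATP supply when respiration is blocked, gave 0 calls among 17 by edgeR and by DESeq2, and 2 at an unadjusted p under 0.05. Among all genes edgeR called 4.39%, and 3507 of 18852 had an unadjusted p under 0.05. Without replicate 1, 8 were higher, against 3.78% of all genes, among them HK1 (0.42), ENO1 (0.36) and PKM (0.30). Once GC content was also corrected 6 were higher, against 954 of all 18852 genes. Replicate 1 had the lowest Rotenone level of PKM, with 1149.8 CPM against 1778 and 1567. Hypoxia targets gave 2 lower of 21, against 2.14% of all genes. These were the oxygen sensor EGLN3 (-0.99 ± 0.25) and the glucose transporter SLC2A1 (-0.38 ± 0.11), the second lost without replicate 1 (edgeR adjusted p = 0.0736). A list of 6 genes of glucose sensing held the sensors MondoA (MLXIP) and ChREBP (MLXIPL), their partner MLX and 3 targets. Of the targets 2 were lower, against 2.14% of all genes. TXNIP, which restrains glucose uptake, had 67.5, 62.1 and 66.4 CPM against 91.4, 118 and 103, with no overlap, a log2 fold change of -0.67 ± 0.10 (edgeR adjusted p = 0.000115). Its relative ARRDC4 stood at -0.88 ± 0.15, and both were called without replicate 1.

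MondoA acts through a carbohydrate response element, searched as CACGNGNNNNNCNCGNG on both strands and found in 149 of 35116 promoters, 0.424%. It is in 1 of the 2 TXNIP promoters listed, shown in capitals within chr1:145996635-145996684 (RefSeq, GRCh38.p14, minus strand), and the ARRDC4 promoter does not.
TXNIP: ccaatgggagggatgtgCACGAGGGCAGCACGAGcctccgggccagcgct

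Targets of NRF2, the main regulator of the antioxidant response, gave no calls. Of 27 tested, 0 were called by edgeR or DESeq2, and 2 had an unadjusted p under 0.05. Among all genes edgeR called 4.39%, and 3507 of 18852 had an unadjusted p under 0.05. Without replicate 1, 1 was higher and 1 lower, against 3.78% and 3.8% of all genes. HMOX1, heme oxygenase, stood at 0.27 ± 0.17 and NQO1, a quinone reductase, at 0.03 ± 0.13, neither past the test. Metallothioneins, small proteins that bind zinc and copper, were called higher for 3 of 8 genes through 1 library, against 2.25% of all genes. Their median log2 fold change was 2.32, and -0.08 without replicate 1. MT1G had 18.5 CPM in Rotenone replicate 1, 1.15 and 1.48 in replicates 2 and 3, and 2.12, 0 and 2.71 in Paraquat. MT1E had 9.87, 1.15 and 1.15 CPM against 1.32, 0.0218 and 1.90, and MT2A 10.0, 0.525 and 3.12 against 1.72, 0.719 and 1.90. In each, only Rotenone replicate 1 lay above all Paraquat libraries by a wide margin. With that library left out, 0 metallothioneins were called, with edgeR adjusted p-values of 0.93, 0.767 and 0.522. DESeq2 called 0 of them with all libraries.

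The 8 genes named for this dependence on replicate 1 were these 3 metallothioneins, the long non-coding RNA LINC02308, which was higher, and NUTM2D, FBXL8, MASP2 and RAB40A, which were lower. In all, 218 genes were called with all libraries and not without replicate 1, and in 154 of them that library was the highest or lowest of the 3 Rotenone libraries and the higher group reached 2 CPM.

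Beyond the lists, the higher genes with the largest fold changes in both fits held several receptors and secreted factors. EPHA2, a receptor for ephrins that guides axons, had 16.5, 20.5 and 30.2 CPM against 6.15, 7.52 and 6.24, a log2 fold change of 1.72 ± 0.20 (edgeR adjusted p = 1.05e-06). BDKRB2, the bradykinin B2 receptor, had 105, 118 and 125 CPM against 52.5, 45.8 and 47.9, at 1.25 ± 0.09. The cytokine gene IL11 had 47.0, 51.1 and 69.9 CPM against 22.4, 22.4 and 24.1, at 1.28 ± 0.16. That the groups did not overlap was a condition for naming these genes. The others of the 15 were PDE10A, a cyclic nucleotide phosphodiesterase (2.79 ± 0.65, with under 1 CPM in each Paraquat library), ELFN2, SLC16A6, PRDM1, PRSS56, GEM, SYNJ2 and IL10RA, at 1.23 to 1.87, together with HRK, CNN2, CREB5 and DUSP16. With the 2 groups alone 11 of the 15 remained called.

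The 15 lower genes included 4 tubulins, TUBB2A, TUBA1A, TUBB4A and TUBB4B. Of the rest, MIR22HG, the host transcript of a microRNA, had 4.65, 4.51 and 5.25 CPM against 11.4, 11.5 and 9.55, a log2 fold change of -1.17 ± 0.17 (edgeR adjusted p = 4.28e-05). The orphan receptor gene GPR62 had 0.728, 0 and 0.164 CPM against 3.51, 1.72 and 3.63, at -2.86 ± 0.53. PARGP1, GSTO2, IKBKE, SRMS, PLEKHD1, MC1R, IL18BP, C3orf52 and TEKT4 lay between -1.29 and -1.47. Of the 15 lower genes 8, GPR62 among them, had a mean under 5 CPM in Paraquat, so few reads stand behind their fold changes. With the 2 groups alone the 4 tubulins and MIR22HG remained called. PARGP1 is a pseudogene and may share reads with its parent gene.

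Transcripts that define the cell state differed for single markers. The dopamine transporter SLC6A3 had 840, 1129 and 1175 CPM in Rotenone and 750, 630 and 562 in Paraquat, without overlap. Its log2 fold change was 0.69 ± 0.11 (edgeR adjusted p = 0.000315), and 0.83 without replicate 1. TH had 31.2, 40.0 and 43.5 CPM against 61.6, 47.7 and 58.9, a log2 fold change of -0.56 ± 0.14 (edgeR adjusted p = 0.0139), which did not pass without replicate 1 (0.0622). Of 12 dopaminergic markers these were the only 2 called, against 4.39% of all genes. NES, an intermediate filament protein of precursor cells, had 135, 164 and 166 CPM against 100.4, 72.2 and 89.7, at 0.83 ± 0.12 (edgeR adjusted p = 6.22e-05). VIM, a related filament protein, was higher by 0.34 ± 0.10.

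Summed marker levels of other cell types were given beside these. The 11 precursor markers summed to 272 to 325 CPM in Rotenone and 207 to 241 in Paraquat. Their median log2 fold change was -0.098, with 5 estimates above 0 and 6 below. NES and VIM were the 2 higher members and SOX1 the 1 lower, against 2.25% and 2.14% of all genes. SOX1 had under 1 CPM in every library and lost the call without replicate 1 (edgeR adjusted p = 0.154). The 20 markers of cycling cells summed to 990 to 1064 CPM in Rotenone, 896 to 1020 in Paraquat and 1000 to 1063 in DMSO. CDC20, CCNA2, CCNB2 and BUB1 were higher, at 0.49 to 0.74, against 2.25% higher among all genes. MCM4 was lower at -0.34 ± 0.08, against 2.14% lower among all genes. The call of CCNB2 was lost without replicate 1 (edgeR adjusted p = 0.0963). Against DMSO, Rotenone had 1 higher and 1 lower member of this list. Among 11 glial markers summing to 199 to 218 against 194 to 210 CPM, only MBP was higher (0.85 ± 0.15), against 2.25% of all genes. GFAP had at most 4 reads in any of the 9 libraries, and SOX10 had 0. The 10 markers of other neuron types summed to 406 to 475 CPM in Rotenone and 326 to 375 in Paraquat, without overlap. Most of each sum came from SLC17A6, the vesicular glutamate transporter. The median log2 fold change of the 10 was 0.05, with 5 estimates above 0 and 5 below. Only SLC17A6 was called, against 4.39% of all genes. SLC17A6 had 410.5, 339 and 325 CPM against 259, 273 and 307, at 0.36 ± 0.10 (edgeR adjusted p = 0.0318, and 0.131 without replicate 1). The part of all these markers in the results above was not tested.

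Some receptors and secreted signals were chosen after their values were seen, went both ways, and were each called with and without replicate 1. SHH, the ventral midbrain patterning signal, had 33.9, 34.6 and 29.4 CPM against 58.0, 49.5 and 53, at -0.71 ± 0.10. RET, the signalling receptor for GDNF, which was present in the medium of all cultures, had 62.9, 62.9 and 62.6 CPM against 96.4, 90.8 and 101, at -0.61 ± 0.11. The neurotrophin receptor NGFR stood at -0.65 ± 0.11. The Rotenone libraries of SHH, RET and NGFR lay below all Paraquat libraries. The receptor of epidermal growth factor, EGFR, was higher at 0.59 ± 0.13. So were the chemokine CXCL12, at 0.99 ± 0.18, and its receptor CXCR4, at 0.47 ± 0.09. EGFR and CXCR4 lost the call with the 2 groups alone (edgeR adjusted p = 0.0818 and 0.0735). Against DMSO, CXCR4 stood at 0.28 in Rotenone, which did not pass (edgeR adjusted p = 0.0721), and at -0.19 in Paraquat.

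**Figure D5:**
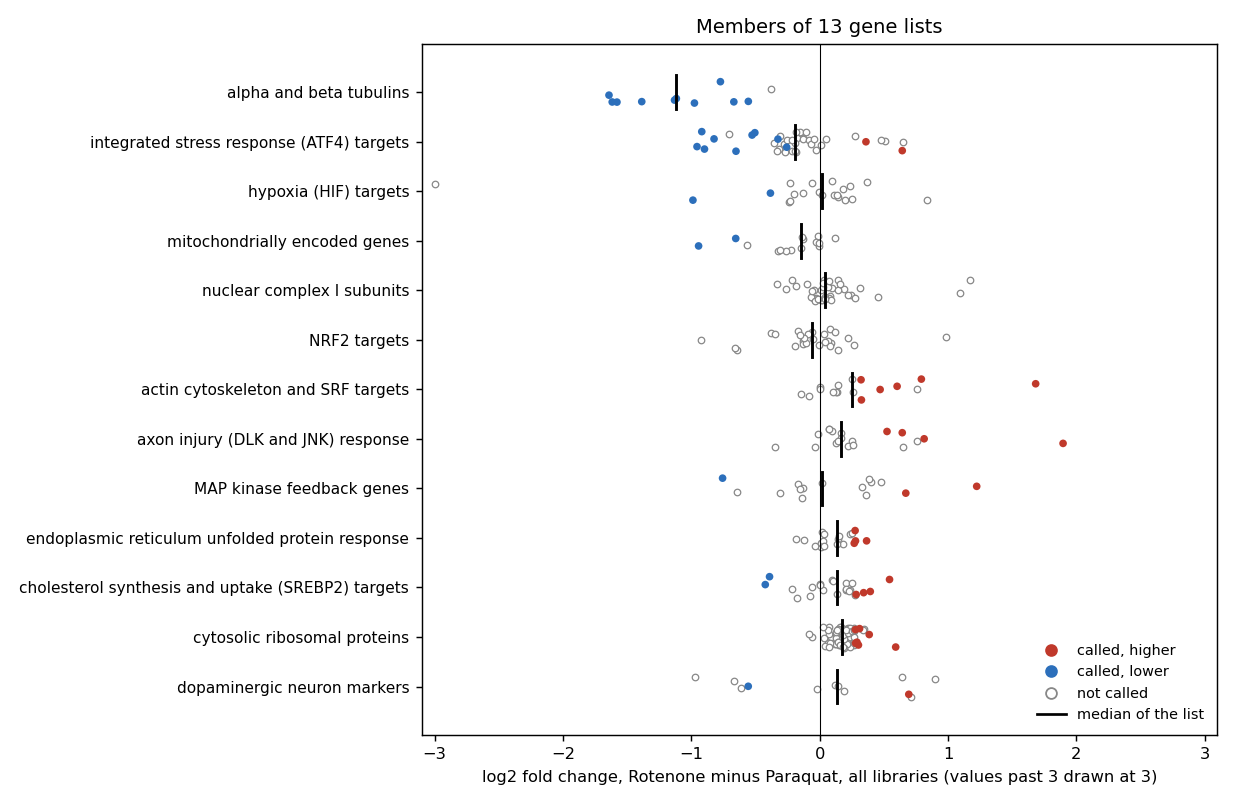
Log2 fold changes, Rotenone minus Paraquat with all libraries, of the members of 13 gene lists; filled points passed the test and bars mark the median of each list. The tubulin median lies at -1.12, while the other 12 medians drawn lie between -0.19 and 0.25. Other lists are not drawn, among them metallothioneins, with a median of 2.32 that became -0.08 without Rotenone replicate 1.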

How the data were processed

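Per the submitters' processing notes, reads were handled with STAR, HTSeq and DESeq on the GRCh38 genome. Not given in the sources used here: tool versions, gene annotation, strand setting and the treatment of multiply mapped reads. Raw read counts per gene for 24 libraries, as the authors deposited them, were used, and their normalized matrix was not. Of 58051 gene identifiers, 56948 matched the name table, and 0 sample columns lacked a sample.

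The 8 groups of 3 libraries were fitted together with edgeR 4.0.16 (R 4.3.3) and 16 residual degrees of freedom. Counts were filtered with filterByExpr (minimum count 10, minimum total 15), which kept 18852 genes, and scaled by TMM. Rotenone minus Paraquat was tested with the quasi-likelihood test, and p-values were adjusted by Benjamini-Hochberg over all 18852 genes. The level called CPM here is the count divided by the scaled library total in megareads. Errors of log2 fold changes are standard errors from the fit. Library totals for Rotenone and Paraquat ran from 9.69 to 45.1 megareads. Alternatives used DESeq2 1.42.0 and limma 3.58.1, other scalings and filters, the 2 groups alone, each library left out in turn, and a replicate block. A per-library correction for GC content, and leaving out Rotenone replicate 1 together with another change, were chosen after seeing the data. Python 3.11.15, pandas 2.3.3, numpy 2.4.6, scipy 1.17.1 and matplotlib 3.10.9 made the tables, exact permutation tests and figures.

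The members and gene lists were chosen with earlier results of these data known. Named genes were up to 15 in each direction by size of log2 fold change among those called with and without Rotenone replicate 1, where the groups did not overlap and the higher one had a mean of 2 CPM or more. To these were added up to 6 members of each list (all members for mitochondrially encoded genes, tubulins and metallothioneins) and up to 8 genes whose call was lost without Rotenone replicate 1, where that library was the extreme one of its group and the higher group reached 2 CPM. Other named genes were chosen after their values were seen, members of the lists beyond the limit of 6 included. Genes with near-identical copies (tubulins, metallothioneins, actins, ribosomal proteins, PARGP1) or overlapping or antisense partners may share reads. In simulated counts for this comparison, over 18852 genes, the test recovered 79% of genes changed by 1 log2 unit and 96% of those changed by 2, and 10 of 185 calls were false. The simulation gave each gene 1 spread for all groups and no GC effect. In the data, libraries deviated from the other 2 of their group with an SD of 0.24 to 0.35 log2 in Rotenone and 0.14 to 0.17 in Paraquat. The simulated rates therefore do not measure recovery or false calls in the data. One result is not reported here because its item is withheld.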

Additional observations from a re-analysis of the deposited data

How the results depend on the processing

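The counts of genes moved with the libraries in the fit, the pooling of the spread over all 8 groups and the correction for GC content. Against 424 higher and 404 lower genes with all libraries, the 2 groups alone gave 66 and 40 (62.3% of the calls higher in place of 51.2%), and the 2 groups alone without Rotenone replicate 1 gave 1045 and 915. DESeq2 called 664 higher genes. Correction for GC content gave 931 higher and 856 lower genes, and 954 and 849 without Rotenone replicate 1. Leaving out 1 library at a time gave between 206 and 713 higher genes and between 193 and 717 lower genes, the highest without Rotenone replicate 1 and the lowest without Paraquat replicate 3. The cause of these shifts was not tested. The other scalings, filters and limma-voom fits stayed within 1.5 times of both counts. Of 104 named genes called with all libraries, 32 were called the same way under all 17 alternatives, and 0 changed direction under any of them. Libraries of 9.69 to 45.1 megareads limit genes with few reads: 45 of the lower and 6 of the higher genes had under 1 CPM in both groups, and 11 and 5 of these were also called without Rotenone replicate 1.

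The replicate numbers are shared by the groups but nothing in the labels pairs the libraries, and deviations of same-numbered libraries correlated at -0.02, -0.02 and -0.02 across genes. A fit with the replicate block gave 371 higher and 335 lower genes.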

Other observations

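Of 74 cytosolic ribosomal protein genes tested, 7 were higher in Rotenone, against 2.25% of all genes, and 0 lower, with a median log2 fold change of 0.18, and 72 of the 74 estimates were above 0. The median over all genes was -0.01. Without Rotenone replicate 1, 16 were higher, against 713 of all 18852 genes, and by DESeq2 14, against 664 of 20191. With GC correction 20 were higher, against 931 of 18852. With Rotenone replicate 1 also left out 35 were higher, against 954. The calls of RPL23A, RPS12 and RPS25 were shared by both fits. RPS25 had 512, 525 and 525 CPM in Rotenone and 424, 411 and 424 in Paraquat, a log2 fold change of 0.31 ± 0.08 (edgeR adjusted p = 0.0245). Genes of cholesterol synthesis, controlled by SREBP2, went both ways, with 4 of 23 higher and 2 lower, against 2.25% and 2.14% of all genes. The sterol oxidase MSMO1 had 456, 349 and 393 CPM against 254, 293 and 275, at 0.54 ± 0.09 (edgeR adjusted p = 0.000361), and INSIG1, which holds back SREBP processing, stood at 0.39 ± 0.07. Lanosterol synthase, LSS, had 149, 168 and 158 CPM against 202, 217 and 218, at -0.42 ± 0.09 (edgeR adjusted p = 0.00307), and ACAT2 stood at -0.39 ± 0.07.

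Among 18 heat shock genes 2 chaperones were lower, against 2.14% of all genes. HSPA8, the constitutive HSP70, stood at -0.32 ± 0.06 and its co-chaperone DNAJA1 at -0.34 ± 0.07, both also called without Rotenone replicate 1. Of 21 synaptic genes 1 was higher and 1 lower, against 2.25% and 2.14% of all genes. SYT4, a synaptotagmin of dense-core vesicles, was higher (0.54 ± 0.09) and NSF, which takes apart SNARE complexes, lower (-0.33 ± 0.09). SCG2, the vesicle protein secretogranin II, was chosen after its values were seen and had 173, 176 and 170 CPM in Rotenone and 64.6, 80.1 and 78.7 in Paraquat, at 1.21 ± 0.10 (edgeR adjusted p = 5.08e-10). The glucocorticoid receptor NR3C1, chosen in the same way, had 58.8, 52.1 and 62.1 CPM against 29.1, 26.7 and 26.7, at 1.07 ± 0.13 (edgeR adjusted p = 5.1e-06). Of 14 Parkinson disease genes tested 0 were called by edgeR and by DESeq2, and 1 had an unadjusted p under 0.05. Among all genes edgeR called 4.39%, and 3507 of 18852 had an unadjusted p under 0.05.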
